A study of Homo sapiens with 32 samples.

Results

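The metallothioneins measured here were MT1A, MT1E, MT1F, MT1G, MT1M, MT1X and MT2A. They were chosen by gene symbol, and 7 of 7 had values among the 18583 genes with values in the deposited tables (47137 gene entries). RNA came from HGrC1, an immortalized granulosa line of human origin that is not luteinized. Granulosa cells line the ovarian follicle and nurse the oocyte within it. Cells from each of 4 separately frozen vials were split into a vehicle control and cultures with 0.01, 0.1 or 1 µM perfluorooctane sulfonate (PFOS), a persistent fluorinated surfactant. All cultures, controls included, received 0.05% DMSO and medium with 10% FBS and 100 nM of a steroid hormone, which the sample labels give as estradiol and the study's methods as testosterone. Each culture gave 1 library at 6 weeks and 1 at 12 weeks, so that 32 libraries fell into 8 groups of n = 4. HGrC1 is a single line, and the 4 vials are therefore cultures of the same cells and not separate donors.

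Metallothioneins are small cysteine-rich proteins that bind zinc, copper and cadmium in clusters of thiolates and so buffer these metals inside the cell. Their genes are induced by metals through MTF1, a zinc-sensing transcription factor that binds metal response elements in their promoters, and several of them also respond to oxidative stress and to glucocorticoids. In the ovary, zinc is required for maturation of the oocyte, and granulosa cells exchange ions and metabolites with it.

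The 7 genes lie in a single cluster at 16q13. In GRCh38.p14 they span chromosome 16 from 56608584 to 56684196, a stretch of 75.6 kb. MT2A (56608584 to 56609497), MT1E (56625781 to 56627112), MT1M (56632659 to 56633981), MT1A (56638666 to 56640087), MT1F (56657959 to 56659303) and MT1X (56682470 to 56684196) are on the plus strand, and MT1G (56666730 to 56668065) is on the minus strand. RefSeq promoters were at hand for 2 of the 7 members, MT2A and MT1X. They are shown because both genes rose between the times (below) and because metal response elements are the regulatory sequence the family is known for. Printed 5′ to 3′ are the 250 bases upstream of the start, on the plus strand, chr16:56608334-56608583 for MT2A and chr16:56682220-56682469 for MT1X, and capitals mark matches to the metal response element core on either strand (TGCACNC or TGCGCNC).
MT2A: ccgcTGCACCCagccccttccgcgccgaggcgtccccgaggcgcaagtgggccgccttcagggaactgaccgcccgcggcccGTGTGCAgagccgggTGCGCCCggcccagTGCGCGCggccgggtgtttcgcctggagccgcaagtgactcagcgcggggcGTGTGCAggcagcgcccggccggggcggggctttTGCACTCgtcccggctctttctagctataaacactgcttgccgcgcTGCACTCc
MT1X: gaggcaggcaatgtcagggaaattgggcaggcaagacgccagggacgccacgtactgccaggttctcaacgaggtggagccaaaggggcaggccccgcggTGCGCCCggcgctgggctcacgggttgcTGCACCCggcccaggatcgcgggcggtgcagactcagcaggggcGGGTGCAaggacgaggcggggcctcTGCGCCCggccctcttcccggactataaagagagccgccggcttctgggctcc
The MT2A window held 7 matches and the MT1X window 4. Of 35116 RefSeq promoter windows of the same length, 24.8% held at least 1 match, 0.37% held as many as MT1X and 0.03% held as many as MT2A. Both windows held 1 TATA box (TATAAA, present in 10.7% of windows), 2 GC boxes (GGGCGG, present in 42.6%) and 1 antioxidant response element core (TGACNNNGC, present in 10.9%). The last of these started 104 bases before the start of MT2A and 243 bases before that of MT1X. The full glucocorticoid response element, present in 0.3% of windows, gave 0 matches in these 250 bases of either gene. Sequence farther upstream was not searched, so that an element there would have been missed. These are matches of letters on both strands, and binding of a factor was not measured.

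MT2A, a metallothionein that nearly all human tissues express, had the highest level here. Levels are given as TPM, a relative level that the authors corrected for library size and transcript length, so that genes can be compared. Over the 16 libraries of 6 weeks the median level was 1759 TPM for MT2A, 562 for MT1E, 134 for MT1X, 33.4 for MT1F, 9.90 for MT1M, 7.56 for MT1A and 4.18 for MT1G. Together the 7 genes made up 2184 to 2807 TPM per library at 6 weeks and 2704 to 5122 TPM at 12 weeks. In bulk RNA, fewer cells expressing a gene and less RNA per cell cannot be told apart. MT1A and MT1G rested on few reads, with 4 to 24 and 3 to 39 counts per library, so that their values carry a large counting error. Of the other metallothionein genes, MT1B had 0 to 1 counts per library, MT1H 0 to 3, MT3 0 to 1 and MT4 0. At this depth a count of 0 allows up to 3 counts, for counting error only.

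Total counts per library lay between 17907057 and 18553350. Of the granulosa markers, GATA4 had 2040 to 2816 counts per library, WT1 1012 to 1450, AMH 191 to 319 and INHBA 123 to 412. FOXL2 had 10 to 37 counts, INHA 8 to 31 and NR5A1 0 to 14. The aromatase gene CYP19A1 had 0 to 1 counts and AMHR2 0 to 3 counts per library, and FSHR had no values. A set of 6 liver markers (ALB, AFP, AHSG, APOB, AMBP and GPC3) summed to 0 to 1 counts in the 8 libraries of the 6-week control and 0.01 µM PFOS groups, to 919 in the 12-week control library of vial 3 and to 72 to 174 in the other 23. Each call below is given with and without the library of 919 counts where that changed it.

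**Figure D1:**
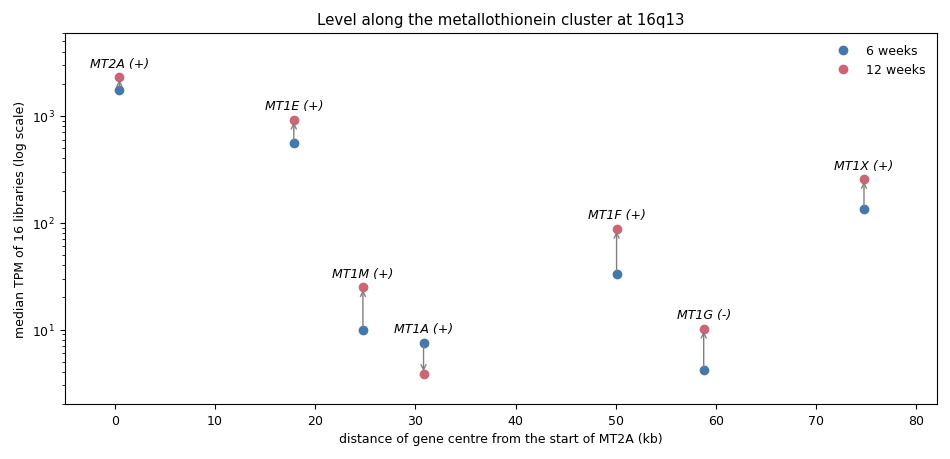
Median level of each metallothionein gene (vertical axis, TPM on a log scale, 16 libraries per time) against the distance of its centre from the start of MT2A (horizontal axis, kb, with the strand in brackets). Blue points are 6 weeks and red points 12 weeks. 6 genes lie higher at 12 weeks, and MT1A, in the middle of the cluster, lies lower (7.56 against 3.84 TPM).

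The first comparison asked whether PFOS altered metallothionein expression at either time. It called 0 members at any concentration. With edgeR's quasi-likelihood test, 6 members passed the low-count filter at 6 weeks (MT1G did not) and 6 at 12 weeks (MT1A did not). At 6 weeks 0 of 6 were called at 0.01, 0.1 and 1 µM, where 0%, 4.24% and 0.28% of the 12836 genes tested were called. At 12 weeks 0 of 6 were called at each concentration, where 0%, 1.07% and 0.22% of 12742 genes were called. DESeq2 also called 0. At an unadjusted p under 0.05, 1, 0 and 0 of 6 members passed at 6 weeks at 0.01, 0.1 and 1 µM, where 9.6%, 20.8% and 13.7% of all genes did. At 12 weeks 3, 0 and 2 of 6 passed, where 8.48%, 15.4% and 8.75% of all genes did. The 3 concentrations of a time share their control libraries and are not independent of each other.

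At 6 weeks the 18 log2 fold changes lay between −0.36 and 0.39, both for MT1A, and the lowest Benjamini-Hochberg adjusted p was 0.443. For MT2A the control libraries held 1828, 1805, 1695 and 1565 TPM (vials 1 to 4 in order, as throughout), those of 0.01 µM held 1714, 2009, 1990 and 1967, those of 0.1 µM held 1828, 1808, 1689 and 1670, and those of 1 µM held 1539, 1650, 1829 and 1676. The groups overlapped. Its log2 fold change at 0.01 µM was 0.14 ± 0.05 (SE; edgeR adjusted p = 0.462), the only value of this time with an unadjusted p under 0.05. MT1E lay between 477 and 625 TPM and MT1X between 115 and 145 TPM over all 16 libraries, and their changes lay between −0.08 and 0.09 on the log2 scale. In 16 of the 18 cases the 95% interval of the log2 fold change lay inside a 2-fold change in either direction, the exceptions being MT1A at 0.01 µM (−0.27 to 1.04) and at 0.1 µM (−1.09 to 0.37).

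At 12 weeks the 6 members tested lay higher on average at 0.01 µM and lower at 1 µM than in the control, without a call. MT1A, which was not tested at this time, had a lower mean at both (4.125 and 4.26 against 4.72 TPM), with overlapping groups. At 0.01 µM all 6 log2 fold changes were positive, from 0.12 to 0.65 with a median of 0.42, while the median over all genes tested was 0. The largest was that of MT1F. Its control libraries held 86.6, 94.9, 60.7 and 49.8 TPM and those of 0.01 µM held 94.7, 94.9, 142 and 113 TPM. Vials 1 and 2 were close to the control libraries of the same vials, and vials 3 and 4 were above theirs. The control mean was 73.0 TPM. The log2 fold change was 0.65 ± 0.19 (SE; edgeR adjusted p = 0.565).

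MT1M held 26.3, 24.3, 19.0 and 14.9 TPM in the control and 29.1, 25.6, 30.8 and 38.2 TPM at 0.01 µM after 12 weeks. In CPM, counts scaled to library size, the 2 groups did not overlap (2.93 ± 0.595 against 1.93 ± 0.42, SD, n = 4), and an exact two-sided permutation test of log2(CPM + 1) gave p = 0.0286, the smallest that 4 against 4 libraries allow. On the TPM scale the groups overlapped. The permutation test of MT1M was the only one of 42 such tests to reach that value, and these p-values were not adjusted for their number. The share of all genes whose groups do not overlap was not counted. The edgeR log2 fold change was 0.60 ± 0.24 (SE; edgeR adjusted p = 0.565). MT1X changed by 0.32 ± 0.11 (SE; edgeR adjusted p = 0.565), from 220 to 279 TPM in the control to 259 to 378 TPM. MT1G ran from 4.27 TPM in vial 2 to 20.5 TPM in vial 4 at 0.01 µM, against 8.19 to 10.2 TPM in the control, so that its groups overlapped widely.

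At 1 µM after 12 weeks all 6 log2 fold changes were negative, between −0.31 and −0.17 with a median of −0.23, and 0 were called. MT2A held 2505, 2598, 2583 and 2033 TPM in the control and 1772, 1970, 2316 and 2154 TPM at 1 µM. The groups overlapped only through the control library of vial 4. Its log2 fold change of −0.31 ± 0.10 (SE, edgeR) had the lowest adjusted p of any member against the control, 0.339, and the exact permutation p was 0.0571. MT1E held 977, 1153, 941 and 783 TPM in the control and 665, 713, 973 and 907 TPM at 1 µM (log2 fold change −0.31 ± 0.14, SE; edgeR adjusted p = 0.565). At 0.1 µM the 6 changes lay between −0.15 and 0.32, with a median of 0.06. In 15 of the 18 cases at 12 weeks the 95% interval lay inside a 2-fold change, the exceptions being MT1F (0.24 to 1.06), MT1M (0.10 to 1.09) and MT1G (−0.15 to 1.17) at 0.01 µM.

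**Figure D2:**
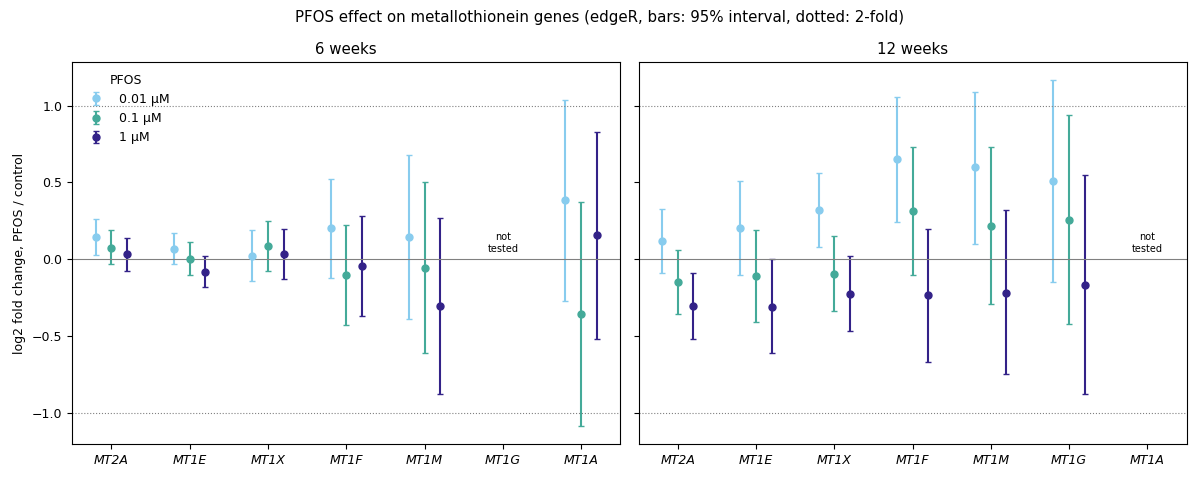
Log2 fold change of each metallothionein gene with PFOS against the control of the same time (vertical axis) at 6 weeks (left) and 12 weeks (right). Points are edgeR estimates, bars their 95% intervals and dotted lines a 2-fold change. At 12 weeks the 0.01 µM points lie above 0 (0.12 to 0.65) and the 1 µM points below it (−0.31 to −0.17), and 0 of the 36 values were called. MT1G at 6 weeks and MT1A at 12 weeks did not pass the low-count filter.

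The vials of a group did not lie alike at 12 weeks. At 0.01 µM and at 1 µM, vials 3 and 4 lay above vials 1 and 2 in 6 of 6 members (all but MT1A). In the control this held for 1 of 6, and vial 4 was the lowest library for 5 of them. At 0.1 µM it held for 0 of 6. The share of all genes with such an order of vials was not counted. Over genes as a whole, chi-square per degree of freedom between libraries also split along these vials. At 1 µM it was 2.73 (vials 1 and 2) and 3.01 (vials 3 and 4), against 7.59 to 9.32 across them. At 0.01 µM it was 5.45 and 10.1 against 10.8 to 16.2, and in the control 4.84 and 4.49 against 8.28 to 9.81. At 0.1 µM it did not split (3.68 to 6.91). Some other measures split along the same vials, and others did not. The mitochondrial share of counts in vials 1 to 4 was 4.99, 5.16, 3.54 and 4.74% at 0.01 µM and 5.75, 5.52, 4.40 and 4.68% at 1 µM, lower in vials 3 and 4. The summed counts of the theca and stroma markers, nearly all from COL1A1, were 40167, 35835, 31490 and 29335 at 0.01 µM and 48500, 47871, 39409 and 41656 at 1 µM, again lower in vials 3 and 4. At 1 µM the immune marker counts were 378, 367, 278 and 266. At 0.01 µM they were 342, 318, 330 and 244, without such a split. The epithelial, granulosa and endothelial marker counts did not split in this way at either concentration. The liver marker counts were 109, 131, 72 and 107 at 0.01 µM and 167, 92, 122 and 174 at 1 µM. The part of these measures in the order of the vials was not tested. After the group means had been removed, Pearson's r of log2(TPM + 1) over the 32 libraries was 0.83 for MT1E with MT1X, 0.81 for MT1E with MT2A and 0.66 for MT1X with MT2A, and 0.10 to 0.69 for the other 12 pairs without MT1A. Among pairs with a low-count gene it was 0.64 for MT1E with MT1M, 0.59 for MT1G with MT1X and 0.10 for MT1G with MT1M. These correlations describe libraries that share vials and depth.

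**Figure D3:**
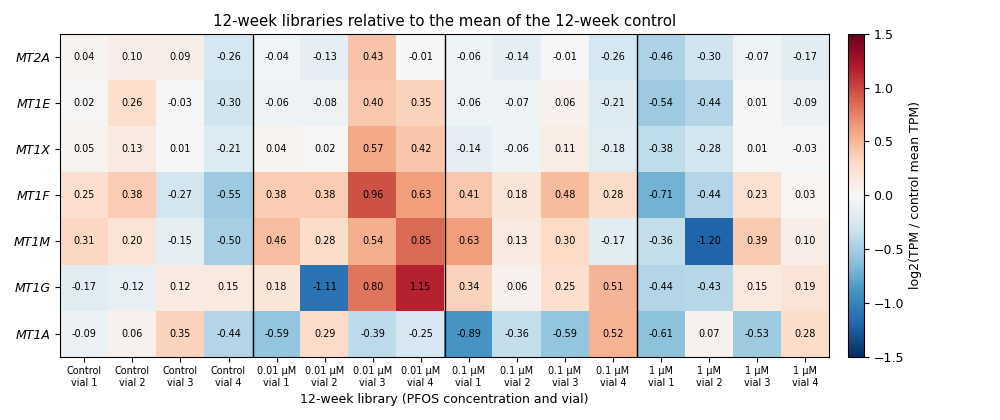
Log2 ratio of each 12-week library to the mean TPM of the 12-week control (colour and printed value), with the metallothionein genes in rows and the 16 libraries in columns, grouped by concentration. Vials 3 and 4 at 0.01 µM are higher than vials 1 and 2 in the upper 6 rows, where they run from −0.01 (MT2A, vial 4) to 1.15 (MT1G, vial 4).

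Whether the effect of PFOS differed between the times was tested as an interaction over all 32 libraries, in which the 7 members passed the filter. It called 0 of 7 at 0.01, 0.1 and 1 µM, where 0%, 0.208% and 0.123% of 12988 genes were called. At an unadjusted p under 0.05, 1, 0 and 1 of 7 members passed, where 7.48%, 14.5% and 12.1% of all genes did. The difference was 0.31 ± 0.15 (SE; edgeR adjusted p = 0.665) for MT1X at 0.01 µM and −0.34 ± 0.12 (SE; edgeR adjusted p = 0.278) for MT2A at 1 µM.

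Between 6 and 12 weeks, in contrast, the metallothioneins changed in the control and in each PFOS group. MT2A, MT1E, MT1X, MT1F and MT1M rose in all 4 groups and MT1G in 3 of them, whereas MT1A fell in 2 of them. The calls of MT2A and MT1A at 1 µM and of MT1A at 0.01 µM were lost when single vials were left out (below). MT1G had not passed the low-count filter within the 6-week libraries, nor MT1A within those of 12 weeks. In the fit of all 32 libraries they passed through the time at which they were higher. Their calls over time are therefore tied to the filter, and the counts of members below include them. In the control 6 of 7 members were called higher and 0 lower, where 17.3% of 12988 genes were called higher and 19.3% lower (36.6% in all). At 0.01 µM 6 were higher and 1 lower (background 21.4% and 21.3%, 42.7% in all). At 0.1 µM 6 were higher and 0 lower (19.7% and 20.6%, 40.3% in all), and at 1 µM 5 were higher and 1 lower (14.2% and 15.9%, 30.1% in all). The median log2 fold change of the 7 members was 1.07, 1.38, 0.89 and 0.81 from the control to 1 µM, against 0 or 0.01 over all genes tested. Time in culture and the separate collection and handling of the 2 sets of libraries cannot be told apart in this design.

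The rise was at least 2-fold for 4 members in the control and at 0.01 µM (MT1F, MT1G, MT1M and MT1X), for 3 at 0.1 µM (MT1F, MT1G and MT1M) and for 2 at 1 µM (MT1F and MT1M). MT1G is counted here although it passed the filter only through its libraries of 12 weeks. Few genes rose as much. A called rise of at least 2-fold was found for 82, 62, 54 and 46 of 12988 genes in the 4 groups in the same order, which is 0.631%, 0.477%, 0.416% and 0.354%.

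Of the members, only MT1X and MT1E separated the times fully. The share of all genes tested that do so was not counted. In the control, MT1X held 123, 125, 137 and 138 TPM at 6 weeks and 265, 279, 257 and 220 TPM at 12 weeks, a log2 fold change of 1.07 ± 0.11 (SE; edgeR adjusted p = 1.93e-09). At 0.01 µM it went from 141, 119, 131 and 145 TPM to 262, 259, 378 and 342 TPM (1.38 ± 0.10, adjusted p = 4.81e-12). The lowest of the 16 libraries at 12 weeks (197 TPM) was above the highest at 6 weeks (145 TPM). For MT1E the same held, with 477 to 625 TPM at 6 weeks and 665 to 1275 TPM at 12 weeks. In the control MT1E rose from 570, 572, 572 and 527 TPM by a log2 fold change of 0.83 ± 0.11 (SE; adjusted p = 2.56e-06).

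MT2A had the smallest fold change of the 6 members that were higher in each group. Its log2 fold change was 0.60 ± 0.09 in the control (SE; edgeR adjusted p = 4.38e-06), 0.58 ± 0.09 at 0.01 µM, 0.38 ± 0.09 at 0.1 µM and 0.27 ± 0.09 at 1 µM (adjusted p = 0.0204). The call at 1 µM was lost without vial 2 (adjusted p = 0.0915) and without vial 4 (adjusted p = 0.0992). Its share of the summed TPM of the 7 genes was 68.5 to 72.6% in the libraries of 6 weeks and 58.0 to 66.6% in those of 12 weeks, and the 2 ranges did not overlap. The other members together, chiefly MT1E and MT1X, made up the rest.

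MT1F, MT1M and MT1G rose by the largest factors from low levels. MT1F held 39.5, 23.9, 36.6 and 32.2 TPM in the 6-week control, and its log2 fold change was 1.23 ± 0.20 in the control (SE; edgeR adjusted p = 1.01e-05), 1.69 ± 0.18 at 0.01 µM, 1.65 ± 0.19 at 0.1 µM and 1.05 ± 0.20 at 1 µM. The libraries of 6 weeks ended at 44.6 TPM and those of 12 weeks began at 44.5 TPM. MT1M held 7.40, 13.8, 10.2 and 10.4 TPM in the 6-week control, and its log2 fold changes were 1.10 ± 0.27, 1.56 ± 0.25, 1.38 ± 0.26 and 1.2 ± 0.28 in the same order. MT1G, with 4.38, 4.67, 4.16 and 3.03 TPM in the 6-week control and 8.19, 8.48, 10.0 and 10.2 TPM in the 12-week control, rose by 1.28 ± 0.37 (SE; adjusted p = 0.00672). At 0.1 µM, MT1G held 3.00, 2.31, 4.03 and 1.73 TPM at 6 weeks and 11.7, 9.64, 10.99 and 13.1 TPM at 12 weeks (2.02 ± 0.39, SE; adjusted p = 7.57e-05). At 1 µM its log2 fold change was 0.90 ± 0.37 (SE; adjusted p = 0.0602), and the fit with the vial as a block called it (adjusted p = 0.036).

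**Figure D4:**
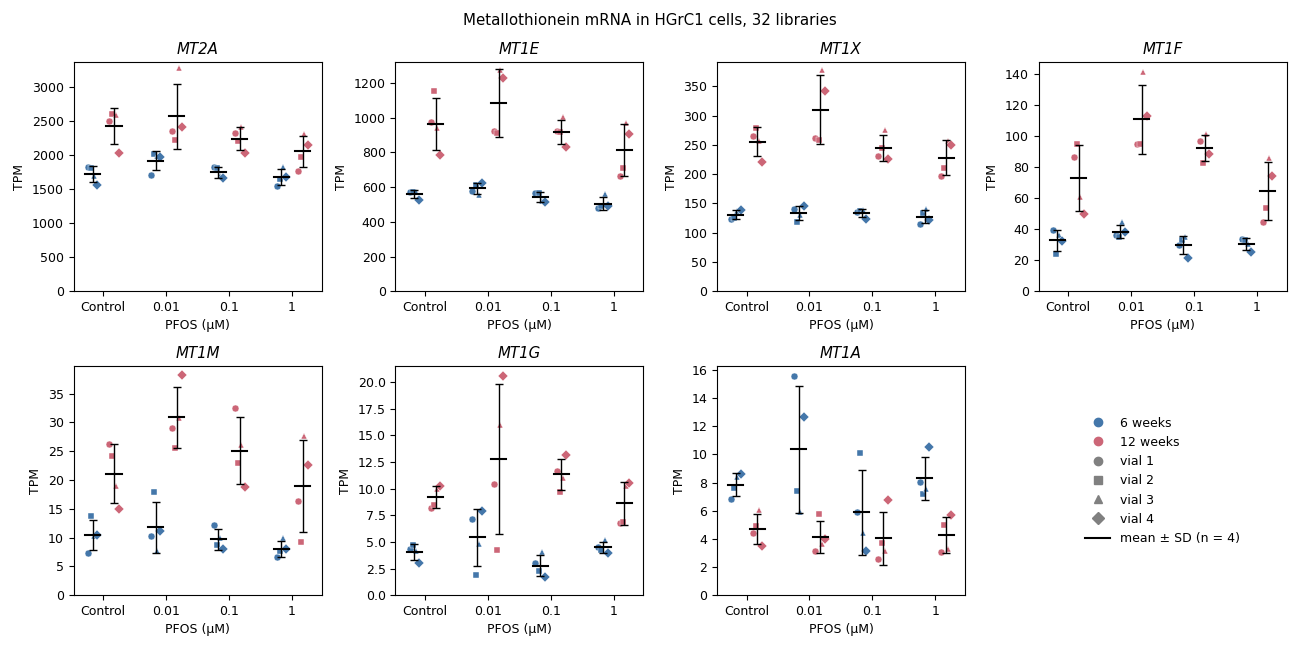
Level of each metallothionein gene (vertical axis, TPM, starting at 0) in the 32 libraries against the PFOS concentration (horizontal axis). Blue is 6 weeks and red 12 weeks, symbols stand for the 4 vials, and black lines with bars are the mean and SD of n = 4. The times separate fully for MT1E (at most 625 against at least 665 TPM) and MT1X (at most 145 against at least 197 TPM), and MT1A is lower at 12 weeks.

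MT1A went the other way. This gene passed the filter only through its libraries of 6 weeks, where it was higher, so that its calls are tied to the filter. It held 6.83, 7.60, 8.42 and 8.59 TPM in the control at 6 weeks and 4.44, 4.92, 6.03 and 3.49 TPM at 12 weeks. The control groups did not overlap on this scale, and the log2 fold change was −0.62 ± 0.35 (SE; edgeR adjusted p = 0.165). At 0.01 µM it went from 15.6, 7.42, 5.89 and 12.6 TPM to 3.14, 5.77, 3.61 and 3.98 TPM and was called (−1.14 ± 0.34, adjusted p = 0.00617). The call was lost without vial 1 (adjusted p = 0.151), the library of 15.6 TPM. At 1 µM it went from 8.01, 7.18, 7.52 and 10.5 TPM to 3.09, 4.97, 3.26 and 5.72 TPM and was called (−0.98 ± 0.35, adjusted p = 0.0324), and this call was lost with DESeq2 and without vial 1, 3 or 4. At 0.1 µM the log2 fold change was −0.51 ± 0.38 (SE; adjusted p = 0.295). In cultures followed over both times, MT1A was lower at 12 weeks in 15 of 16, the exception being vial 4 at 0.1 µM (3.15 and 6.76 TPM). Each of the other 6 members was higher at 12 weeks in 16 of 16 cultures. The share of all genes with such an order was not counted. Over the 32 libraries, Pearson's r of log2(TPM + 1) was −0.62 to −0.43 for the 6 pairs with MT1A and 0.72 to 0.97 for the 15 pairs without it. Within groups it was −0.14 to 0.14 and 0.10 to 0.83.

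**Figure D5:**
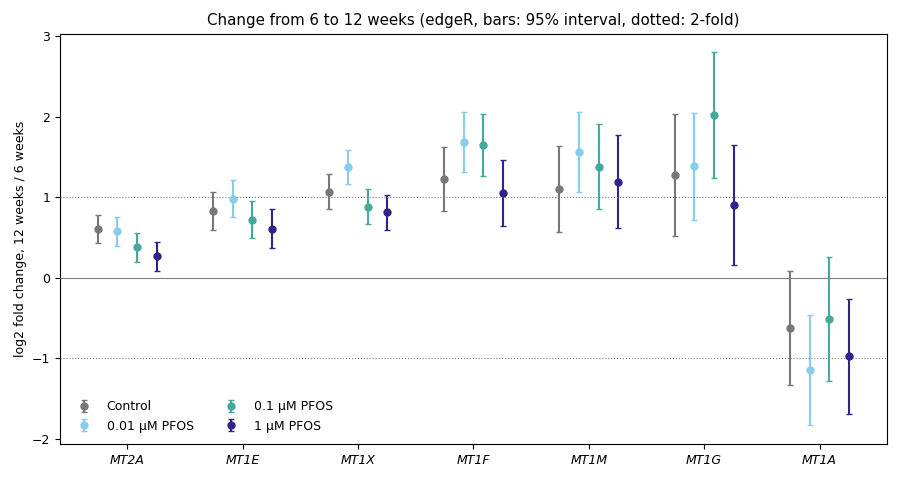
Log2 fold change from 6 to 12 weeks (vertical axis) for each metallothionein gene in the control and at 3 PFOS concentrations. Points are edgeR estimates, bars their 95% intervals and dotted lines a 2-fold change. The 24 points other than those of MT1A lie between 0.27 and 2.02, and those of MT1A between −1.14 and −0.51.

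Reads of such similar genes can be hard to place. Of all stretches of 31 bases in the reference transcript of a member, 13.9% (MT1F) to 54.0% (MT1X) also occurred in a transcript of another gene, and 10.6 to 22.6% in that of another member. For MT1A these were 18.9% and 14.5%. RSEM divides reads that match several transcripts by probability, and the effect of this on the values of single members was not measured here. MT1A was at 3.84 TPM and MT2A at 2321 TPM in the median library of 12 weeks.

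Liver marker counts moved with time in the control (0 to 1 at 6 weeks, 81 to 919 at 12 weeks) and at 0.01 µM (0 to 1, then 72 to 131). At 0.1 µM they were 89 to 141 at 6 weeks and 95 to 155 at 12 weeks, and at 1 µM 88 to 115 and 92 to 174. Without the 12-week control library of 919 counts, 6 members were called higher in the control. Of markers of other cell types, the 3 endothelial ones summed to 29 to 45 counts at 6 weeks and 10 to 24 at 12 weeks. PECAM1 fell in all 4 groups, by 2.65 on the log2 scale in the control, VWF fell at 0.1 and 1 µM, and CDH5 was called in 0 groups. The theca and stroma markers summed to 34540 to 43600 counts at 6 weeks and 29335 to 48500 at 12 weeks. Of the 3 tested, PDGFRA fell in all 4 groups, by 1.87 in the control, and DCN was called in 0 groups. COL1A1 fell by 0.25 at 0.01 µM, while in the control its change was upward, by 0.03, and not called. The epithelial markers summed to 23032 to 31205 counts at 6 weeks and 23900 to 35141 at 12 weeks. KRT19, by far the most abundant of the 3 (22979 to 35097 counts), rose by 0.20 in the control and was not called at the 3 PFOS concentrations, CDH1 fell in all 4 groups, by 0.93 in the control, and EPCAM was called in 0 groups. Of the immune markers, CD3E had 0 counts and PTPRC 0 to 8 per library. CD68 fell by 0.48, 0.63 and 0.46 at 0.01, 0.1 and 1 µM and was not called in the control (−0.12). The part of the cells behind these markers, the liver markers included, in the change of the metallothioneins was not tested.

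Other genes of metal handling moved in both directions over time. Of 18 zinc transporters tested, 0 were called against the control at any concentration or time. From 6 to 12 weeks in the control, 0 rose and 6 fell, with a median log2 fold change of −0.08. At 0.01 µM 2 rose and 6 fell, at 0.1 µM 2 rose and 8 fell, and at 1 µM 1 rose and 6 fell, to be read against the shares of all genes given above for each group (14.2 to 21.4% higher and 15.9 to 21.3% lower). SLC30A1, a zinc exporter of the cell surface, rose by 0.24 at 0.01 µM and by 0.25 at 0.1 µM. SLC39A8, an importer of zinc and manganese, fell by 0.83 in the control, SLC30A4, a zinc transporter of intracellular vesicles, fell by 0.54 and SLC39A14, an importer of zinc and iron, fell by 0.19 on the log2 scale. Of 10 genes of metal and oxidative stress regulation, 0 were called against the control, and from 6 to 12 weeks in the control 2 rose and 3 fell. At 0.01 µM 4 rose and 4 fell, at 0.1 µM 2 rose and 3 fell, and at 1 µM 2 rose and 2 fell. These counts are to be read against the same shares of all genes. In the control NFE2L2, the regulator of the antioxidant response, rose by 0.21, and its targets GCLM and GCLC, the subunits of the enzyme that limits glutathione synthesis, fell by 0.48 and 0.27. MTF1 had 313 to 431 counts per library and log2 fold changes between −0.06 and 0.11 over time and between −0.06 and 0.09 against the control, with 0 of 10 called.

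Of 11 genes of copper handling, 0 were called against the control, and 1 rose and 4 fell from 6 to 12 weeks in the control. At 0.01 µM 1 rose and 3 fell, at 0.1 µM 1 rose and 6 fell, and at 1 µM 0 rose and 5 fell. Of all genes, 17.3, 21.4, 19.7 and 14.2% rose from the control to 1 µM, and 19.3, 21.3, 20.6 and 15.9% fell. In the control SLC31A2 and SLC31A1, the copper transporters of the cell and its vesicles, fell by 0.73 and 0.34, and COMMD1, which takes part in copper export, rose by 0.25. The glucocorticoid response list, of which 9 genes were tested, was the only one of the 4 with calls against the control. At 0.1 µM after 6 weeks PER1, a clock gene, fell by 0.28 (edgeR adjusted p = 0.00683) and DUSP1, a MAP kinase phosphatase, rose by 0.26 (adjusted p = 0.0336). At 0.1 µM after 12 weeks 4 genes of the list fell, KLF9 by 0.48, DUSP1 by 0.45, TSC22D3 by 0.66 and ERRFI1 by 0.22, and at 1 µM KLF9 fell by 0.43. From 6 to 12 weeks in the control DUSP1, TSC22D3 and NR3C1, the glucocorticoid receptor gene, rose by 0.59, 0.37 and 0.12, and 0 genes of the list fell. Over the same time at 0.01 µM, 1 of the 9 genes rose and 2 fell (of all genes 21.4% and 21.3%). At 0.1 µM 1 rose and 5 fell (19.7% and 20.6%), and at 1 µM 2 rose and 3 fell (14.2% and 15.9%). TSC22D3 fell by 0.34 at 0.1 µM (edgeR adjusted p = 0.0209), and ERRFI1 fell at each concentration, by 0.16, 0.22 and 0.41. NR3C1 rose in all 4 groups.

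Of the 5 genes whose pattern over the 32 libraries was most like the mean of the standardized members, 3 are given here, MAD2L2 (r = 0.953), RPSA (0.947) and RPL18 (0.945), out of 12988 genes. RPSA and RPL18 encode ribosomal proteins and MAD2L2 a protein of DNA repair and the spindle checkpoint. After the group means had been removed r was 0.71 for MAD2L2, 0.604 for RPSA and 0.648 for RPL18. Their log2 fold changes over time in the control were 0.25 (MAD2L2), 0.43 (RPSA) and 0.23 (RPL18), smaller than those of the 6 members that were higher. Since the metallothioneins have short transcripts, the change over time was set beside transcript length, a comparison chosen after the values had been seen. The reference transcripts of the members are 396 to 746 bases long. For 380 other genes of at most 800 bases the median log2 fold change was 0.07 in the control, 0.11 at 0.01 µM, −0.01 at 0.1 µM and −0.04 at 1 µM, and 95% of them lay below 0.44, 0.53, 0.37 and 0.23. The values of MT2A, the lowest of the 6 members that were higher, were 0.60, 0.58, 0.38 and 0.27. Those of MT1A, whose transcript of 396 bases is the shortest of the members, were −0.62, −1.14, −0.51 and −0.98. The part of transcript length in the change over time was not tested.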

How the data were processed

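RNA of 32 libraries (8 groups of 4) was analysed. Per the submitters' processing notes, HISAT2 2.0.4, Bowtie2 2.2.5, RSEM 1.2.8 and GRCh38.p14 were used. The authors deposited unnormalized expected counts per gene, and TPM values that they scaled for library and transcript length. Their normalized signal and FPKM values were not used here, and 0 sample columns were left unmapped. The members and gene lists were chosen with earlier results of these data known.

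Expected counts were rounded and fitted with edgeR 4.0.16 (R 4.3.3, limma 3.58.1; robust quasi-likelihood test, TMM, edgeR's low-count filter, two-sided, Benjamini-Hochberg adjustment over all genes tested). A gene was called at an adjusted p at or under 0.05. PFOS groups were tested within the 16 libraries of a time, and times and interactions over all 32. Single values were tested by exact permutation of log2(CPM + 1), without adjustment for the number of tests. Alternatives were DESeq2 1.42.0, RLE normalization, other filters, other sets of libraries, a vial block and leaving out vials. Fits were tested on simulated data. For 12 against 6 weeks in the control, 94 of 97 genes with a simulated 2-fold change (log2 of 1) were recovered among 12917 genes.

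All 7 members were named in each comparison. From the lists, genes called against the control were named, as were MTF1, the 3 genes with the lowest p over time in the control, and the genes most like the members, of which 2 of 5 are not reported here. Permutation tests and searches of RefSeq promoters and GENCODE transcripts were run in Python 3.11.15 with pandas 2.3.3 and scipy 1.17.1. The promoters of MT1A, MT1E, MT1F, MT1G and MT1M were not used here.

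The labels state that the flask of each vial was divided into the 4 groups, so replicate numbers pair the libraries. The mean correlation of same-numbered libraries, after group means had been removed, was 0.069 to 0.158 at 6 weeks, −0.206 to 0.154 at 12 weeks and 0.026 to 0.11 between times. Within groups, 48 pairs of replicates were compared and 0 were identical (chi-square per degree of freedom 2.30 to 16.2).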

Additional observations from a re-analysis of the deposited data

How the results depend on the processing

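Against the control, 0 members were called under any of the 69 alternatives tried, and 0 for the interaction under 30. From 6 to 12 weeks between 4 and 7 members were called per group. Of 277 alternative values of single members over time, 267 kept their side of the threshold and 0 changed direction. The count of exact permutation tests at or under 0.05 went from 1 to 0 with log2(TPM + 1), on which scale the MT1M groups overlap.

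With the vial as replicate block, MT1G at 1 µM over time was called (0.90, edgeR adjusted p = 0.036), and the block changed no other call. It was also called in a fit of only the 8 libraries concerned (0.90, adjusted p = 0.0261) and without vial 2 (0.94, adjusted p = 0.0455). MT1A at 1 µM lost its call with DESeq2 (−0.99, adjusted p = 0.065) and without vial 1, 3 or 4 (adjusted p = 0.114, 0.123 and 0.0805). MT2A at 1 µM lost its call without vial 2 or 4 (adjusted p = 0.0915 and 0.0992). The causes were not tested.

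Uncalled log2 fold changes near 0 changed sign when a vial was left out. The ranges over vials left out at 6 weeks were −0.065 to 0.076 for MT1X at 0.01 µM, −0.009 to 0.033 for MT1E, −0.277 to 0.006 for MT1F and −0.308 to 0.166 for MT1M at 0.1 µM, and −0.19 to 0.023 for MT1F and −0.021 to 0.093 for MT2A at 1 µM. At 12 weeks the range was −0.473 to 0.082 for MT1M at 1 µM. For the difference between the times the ranges were −0.027 to 0.303 for MT1G and −0.083 to 0.038 for MT2A at 0.01 µM, −0.614 to 0.554 for MT1A at 0.1 µM, and −0.473 to 0.179 for MT1F and −0.122 to 0.316 for MT1M at 1 µM. Without the 12-week control library of vial 3 alone, the difference for MT2A at 0.01 µM was 0.01 in place of −0.02.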
